A study of Mus musculus with 6 samples.

Results

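The genes described here are 43 genes of cell division: Pttg1, which encodes securin, its partner separase, the genes of mitosis, the genes of DNA replication and the subunits of cohesin. They were chosen by symbol, when the loss of Pttg1 in these data was already known, in order to set it against the rest of the cell cycle genes. All 43 were found among the 24062 symbols of the deposited table, and all 43 passed the filter on low counts that left 16722 genes for testing. RNA of the auditory nerve was sequenced from young adult mice, and each sample joined the nerves of both cochleae of 1 mouse. The 3 wildtype mice were of strain C57BL/6, named C57BL/6J in the design text, and the 3 Vcan knockout mice carry the same strain label. No treatment is named for either group. Which part of Vcan was altered, in which cells, and whether the wildtype mice were littermates is not given in the sources used here. Libraries held 74530860 to 92513887 counts. The targeted gene Vcan, which encodes a matrix proteoglycan, was counted 697, 864 and 626 times in wildtype replicates 1, 2 and 3 and 413, 249 and 248 times in the knockout replicates. Its groups did not overlap, and its log2 fold change of −1.20 passed the threshold in DESeq2 (adjusted p = 0.0334) but not in edgeR (adjusted p = 0.558). The neuronal markers Snap25, Nefl, Nefm, Tubb3 and Gata3 summed to 3551 to 7032 CPM (counts relative to the library total, scaled by the TMM method), so the tissue carried neuronal transcripts in every library. Wildtype replicate 3 stood apart from the others, with the lowest sum of neuronal markers and a correlation of at most 0.936 with any other library (log2 CPM). Gata3, unlike the other neuronal markers, was highest in that library (56.8 CPM).

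Sister chromatids are held together by cohesin, a ring of Smc1a, Smc3 and Rad21 with Stag1 or Stag2. Securin binds separase and keeps it inactive until the anaphase-promoting complex, switched on by Cdc20, has securin destroyed. Separase then cuts Rad21 and the chromatids part. Mitotic genes are transcribed mostly in dividing cells, whereas cohesin also folds chromatin in cells that do not divide, such as neurons. In whole-tissue RNA a lower level can mean fewer cells of a type or less RNA per cell, and these cannot be told apart here. Any other difference between the groups of mice, such as one of genetic background, also cannot be told apart from the knockout.

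Pttg1 was nearly lost from knockout nerve while the other cell cycle genes showed no common shift. Of the 43 genes 1 passed the threshold of an adjusted p under 0.05, Pttg1, which was lower. That is 2.33% of them, against 0.138% of all genes tested (edgeR), and it rests on this 1 gene, whose difference was known when the genes were chosen. Of the other 42 genes, 22 had a positive and 20 a negative log2 fold change, with a median of 0.03 against −0.01 over all genes tested. Of these 42, 35 lay within 1.5-fold and 40 within 2-fold of no difference. The exceptions were Plk1, higher in knockout nerve, and Bub1b, lower. At an unadjusted p under 0.05 there were 4 of the 42 (9.52%), against 5.2% of all genes. The 2 groups did not overlap for 5 of the 42 (11.9%), against 10.3% of all genes, so this share lay near the background. DESeq2 called 3 of the 43 genes (Pttg1, Plk1 and Bub1b, 6.98%) against 1.39% of the genes it tested. In the authors' deposited table the same 3 genes stand at an adjusted p under 0.05, against 1.34% of its genes. The plot of fold changes by role shows Pttg1 far to the left of all other genes.

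**Figure D1:**
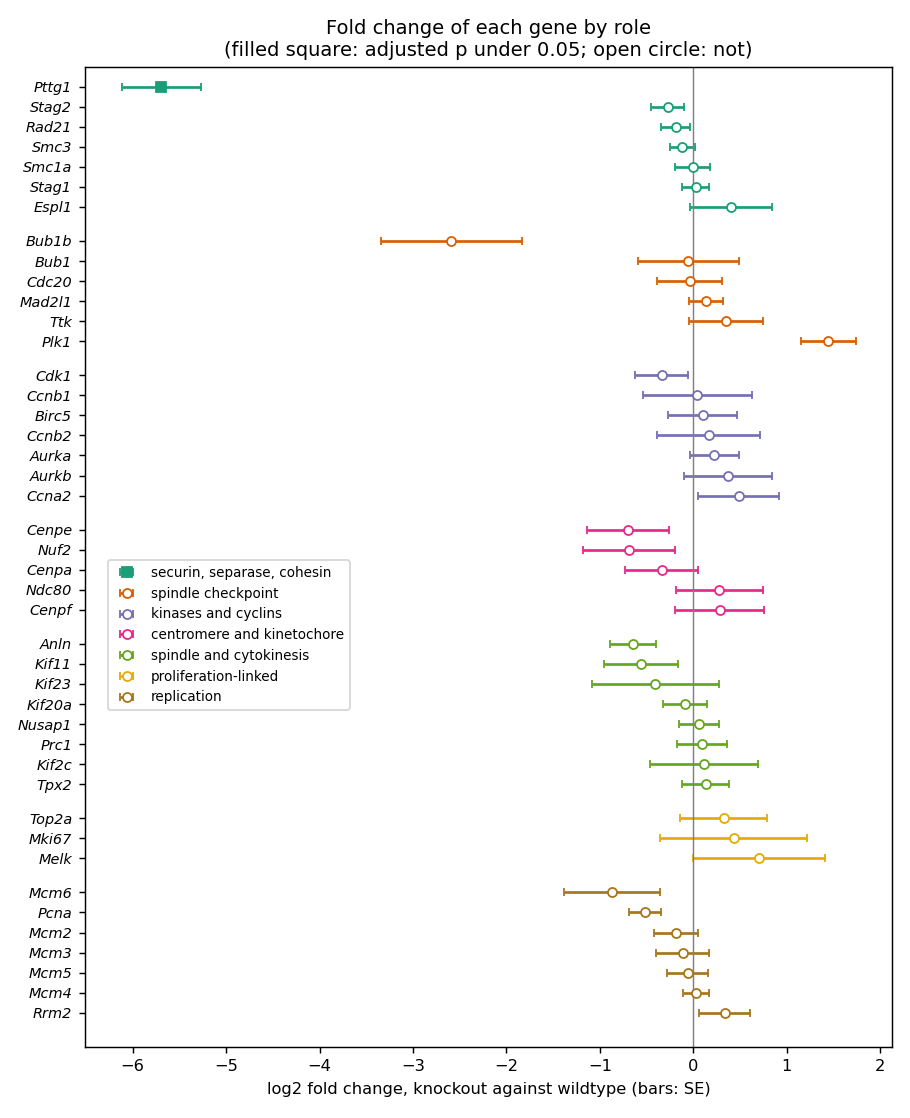
Log2 fold change of knockout against wildtype nerve for each of the 43 genes (x axis), grouped by role, with bars for the standard error and filled squares for an adjusted p under 0.05 (edgeR). Pttg1 lies at −5.69, Bub1b at −2.59 and Plk1 at 1.44, and the other 40 genes lie between −0.87 and 0.70.

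Pttg1 (gene identifier 30939) lies on the minus strand of chromosome 11, 43420244 to 43427463 in GRCm38 (RefSeq). It was counted at 39.9, 51.3 and 43.9 CPM in wildtype replicates 1, 2 and 3, and at 0.619, 1.42 and 0.557 CPM in the knockout replicates. Every wildtype library thus held far more Pttg1 than every knockout library, and the lowest wildtype value was 28.1 times the highest knockout value. The raw counts were 3322, 4610 and 3751 in wildtype and 47, 131 and 48 in knockout libraries, so a residue of reads remained in each knockout animal. The means were 45.0 ± 5.80 and 0.865 ± 0.481 CPM (SD, n = 3), and the knockout mean was 1.92% of the wildtype mean. The log2 fold change was −5.69 (SE 0.43, edgeR adjusted p = 0.00873). With 1 animal left out at a time the fold change stayed between −6.26 and −5.47. The adjusted p rose past the threshold without wildtype replicate 2 (0.0603), without wildtype replicate 3 (0.0608) and without knockout replicate 3 (0.0537). The authors' deposited table gives a log2 fold change of −3.81 (SE 0.25), with an adjusted p of 8.65e-48. Its values for Plk1 (1.09) and Bub1b (−0.99) also lay nearer to no difference than those fitted here. How the authors' fold changes were estimated, beyond the use of DESeq2, is not given in the sources used here.

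No copy of Pttg1 was found by exact matches among annotated transcripts, a search that would miss a diverged or unannotated copy. None of the 50-base stretches of its longest transcript (1674 bases, GENCODE vM21) occurs in a transcript of a gene at another locus, and no other gene's exons overlap its own. Per kilobase of exon, Pttg1 stood at 22.5 ± 2.90 CPM in wildtype nerve (SD, n = 3), the fourth highest of the 43 genes after Rad21 (40.5 ± 6.72), Pcna (24.0 ± 3.57) and Smc1a (22.8 ± 2.58). Pcna, Smc1a and Pttg1 differed by less than the SD of each. Separase, the enzyme securin inhibits, was at only 0.127 CPM per kilobase in wildtype nerve, and the median of the 30 other mitotic genes was 0.231. In knockout nerve Pttg1 was at 0.433 ± 0.240 CPM per kilobase (SD, n = 3), rank 21 of 43 and inside the range of the mitotic genes. Pttg1 made up 27.0%, 27.5% and 27.0% of the counts of all 31 mitotic genes in the wildtype libraries. In the knockout libraries that share was 0.649%, 1.34% and 0.628%. Without the abundant gene Anln the share varied more, with 46.3%, 55.4% and 41.4% in the wildtype and 1.08%, 2.86% and 1.17% in the knockout libraries.

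**Figure D2:**
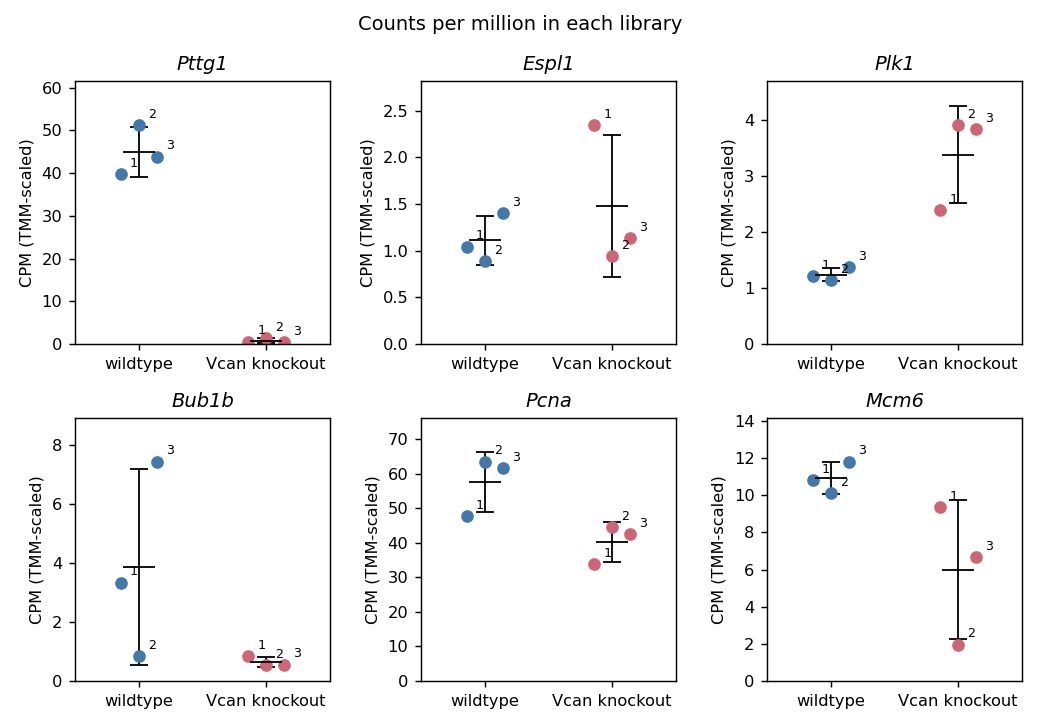
CPM (TMM-scaled, y axis from 0) of Pttg1, Espl1, Plk1, Bub1b, Pcna and Mcm6 in each library, numbered by replicate, with the group mean and SD as bars. Pttg1 falls from 39.9 to 51.3 CPM in wildtype to 1.42 CPM or less in knockout libraries, while the groups overlap for Espl1.

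No gene around Pttg1 had a fold change near its own. Of the 11 other genes of the table within 1 Mb on chromosome 11, 8 were tested. None of the 8 passed in edgeR or DESeq2, against 0.138% and 1.39% of all genes tested by each. An unadjusted p under 0.05 in edgeR was found for 1 (C1qtnf2), against 5.2% of all genes. Slu7, a splicing factor gene 6.3 kb away, was at 74.0 ± 2.12 CPM in wildtype against 66.2 ± 4.13 CPM in knockout animals (SD, n = 3), a log2 fold change of −0.16 (SE 0.11). The groups did not overlap for Slu7 or for C1qtnf2, a secreted C1q-domain protein gene 46.8 kb away, 2 of 8 against 10.3% of all genes. C1qtnf2 had the lowest fold change of the 8, with group means of 4.26 ± 1.78 and 1.82 ± 0.0837 CPM (SD, n = 3). Its log2 fold change was −1.23 (SE 0.35, edgeR adjusted p = 0.617, DESeq2 adjusted p = 0.0574), so in DESeq2 it lay close to the threshold. The median over the 8 neighbours was −0.29, and the highest value was 0.18 for Pwwp2a.

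**Figure D3:**
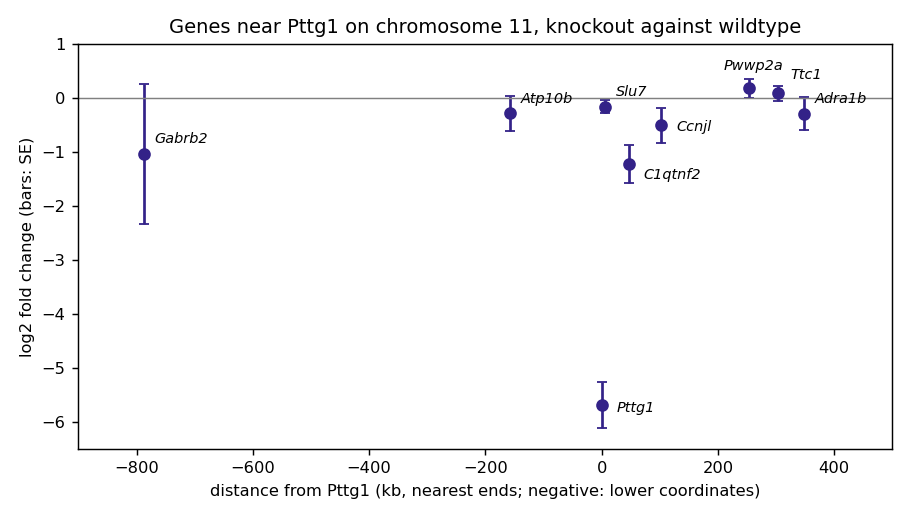
Log2 fold change of knockout against wildtype nerve (y axis, bars for SE) of the tested genes within 1 Mb of Pttg1, by distance in kilobases. Pttg1 lies at −5.69 and its 8 neighbours between −1.23 and 0.18.

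The transcripts whose pattern over the 6 libraries was most like that of Pttg1 were none of the 42 other genes. Among genes of at least 1 CPM, the 5 highest correlations of log2 CPM with Pttg1 were those of Gm13157, the complement inhibitor gene Cd59a, the dopamine receptor gene Drd1a, the ribosomal protein gene Rpl29 and the choline phosphodiesterase gene Enpp6 (Pearson r from 0.988 to 0.994 over 6 libraries, a description that rests mainly on the difference between the groups). The groups did not overlap for any of the 5, which largely follows from choosing them by their correlation with Pttg1. Among the 42 other cell cycle genes r ran from −0.916 for Plk1 to 0.856 for Pcna, with a median of −0.08, and it was above 0 for 17.

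Separase and cohesin, the enzyme that securin restrains and the ring that it cuts, had no difference that passed the threshold. Espl1, the separase gene, was at 1.04, 0.890 and 1.40 CPM in the wildtype and 2.35, 0.942 and 1.14 CPM in the knockout libraries. The groups overlapped, and knockout replicate 1 was the highest of the 6. Espl1 had a log2 fold change of 0.41 (SE 0.44). The ratio of Pttg1 to Espl1 in CPM was 38.2, 57.6 and 31.3 in the wildtype and 0.264, 1.51 and 0.490 in the knockout libraries. All 5 cohesin genes were abundant and even. Rad21, the subunit that separase cuts, was at 167, 146 and 202 CPM in the wildtype and 159, 145 and 147 CPM in knockout libraries. Stag2 was at 146, 129 and 190 CPM and 142, 123 and 120 CPM, and for both genes wildtype replicate 3 was the highest library. The log2 fold changes were −0.19 (SE 0.16) for Rad21, −0.27 (SE 0.18) for Stag2, −0.12 (SE 0.14) for Smc3, −0.01 (SE 0.19) for Smc1a and 0.02 (SE 0.15) for Stag1. The coefficient of variation within a group was 4.97% to 21.1% for these 5 genes, and none differed by as much as 1.5-fold.

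Among the 6 genes of the spindle checkpoint and its target, a polo kinase rose and a checkpoint kinase-like gene fell by DESeq2, and neither passed in edgeR. Plk1, the polo-like kinase that drives entry into and progress through mitosis, was at 1.21, 1.15 and 1.37 CPM in the wildtype and 2.39, 3.91 and 3.84 CPM in knockout libraries. All 3 knockout values lay above all 3 wildtype values. Plk1 had a log2 fold change of 1.44 (SE 0.29, edgeR adjusted p = 0.285, DESeq2 adjusted p = 0.00071), and it stayed between 1.32 and 1.64 with 1 animal left out at a time. Of the 50-base stretches of Plk1, 6.84% also occur at another locus, foremost in the pseudogene Plk-ps1, and 7.09% of its exon bases overlap the transcript Gm44985 on the opposite strand. How such reads were assigned is not given in the sources used here. Bub1b, which encodes the checkpoint protein BubR1, was at 3.34, 0.846 and 7.45 CPM in the wildtype and 0.844, 0.531 and 0.557 CPM in knockout libraries. The groups did not overlap, but wildtype replicate 2 (76 counts) lay beside knockout replicate 1 (64 counts), and the coefficient of variation was 86.0% in wildtype against 26.9% in knockout animals. The log2 fold change of Bub1b was −2.59 (SE 0.75, edgeR adjusted p = 0.618, DESeq2 adjusted p = 0.0116), and it was −1.71 without wildtype replicate 3. Mad2l1, the checkpoint protein that holds Cdc20, was at 6.67, 7.81 and 6.63 CPM in the wildtype libraries and at 7.02, 7.82 and 8.39 CPM in the knockout libraries, with overlap. Cdc20, the activator that targets securin for destruction, was at 2.64, 3.09 and 5.93 CPM and at 3.45, 3.66 and 4.24 CPM, a log2 fold change of −0.04 (SE 0.35). Of the 50-base stretches of Cdc20, 11.4% also occur at another locus, foremost in Gm7856. Bub1 and Ttk, kinases of the checkpoint, were counted 12 to 42 times in a library, and their log2 fold changes were −0.05 (SE 0.54) and 0.35 (SE 0.39).

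The kinases and cyclins of mitosis showed no difference that passed. All 7 genes of this group lay within 1.5-fold of no difference, 6 with positive and 1 with negative fold changes, at levels of 0.382 to 2.05 CPM. Cdk1, the kinase that starts mitosis, was at 1.96, 2.86 and 2.06 CPM in the wildtype and 2.14, 1.65 and 1.66 CPM in knockout libraries, a log2 fold change of −0.34 (SE 0.28). Aurka, the centrosomal Aurora kinase, was at 1.88, 2.16 and 1.45 CPM and 2.06, 2.18 and 2.19 CPM, a log2 fold change of 0.23 (SE 0.27). Ccna2, the cyclin of S phase and early mitosis, had the highest value of the group, 0.49 (SE 0.43), and 12.5% of its exon bases overlap Exosc9 on the opposite strand. The log2 fold change was 0.04 (SE 0.58) for Ccnb1 and 0.17 (SE 0.55) for Ccnb2, the B-type cyclins that activate Cdk1. It was 0.37 (SE 0.47) for Aurkb and 0.10 (SE 0.37) for Birc5, which act together in the chromosomal passenger complex. These 4 genes were counted only 18 to 88 times in a library. The value of Ccnb1 is uncertain, since 42.1% of its 50-base stretches also occur at another locus, foremost in the pseudogene Ccnb1-ps.

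The genes of centromere, kinetochore and spindle were likewise without a call, and Anln was by far the most abundant of them. Cenpa, the histone variant that marks centromeres, was at 1.12, 1.66 and 1.51 CPM in the wildtype and 0.738, 1.64 and 1.01 CPM in knockout libraries. Cenpe, the kinetochore motor, was at 1.51, 0.757 and 1.18 CPM and 1.04, 0.563 and 0.522 CPM, a log2 fold change of −0.70 (SE 0.44). The groups overlapped for both genes. The log2 fold changes of Nuf2 and Ndc80, which together bind microtubules at the kinetochore, were −0.69 (SE 0.49) and 0.28 (SE 0.47), and that of Cenpf was 0.28 (SE 0.47). Of the 8 genes of spindle and cytokinesis, 4 had positive and 4 negative fold changes. Nusap1, Tpx2 and Prc1, proteins that bundle or nucleate spindle microtubules, were steady, with log2 fold changes of 0.06 (SE 0.22), 0.13 (SE 0.25) and 0.09 (SE 0.27). Of the exon bases of Prc1, 11.1% overlap Rccd1 on the opposite strand. Among the kinesins the values were −0.56 (SE 0.40) for Kif11, −0.41 (SE 0.68) for Kif23, −0.09 (SE 0.24) for Kif20a and 0.11 (SE 0.58) for Kif2c. Kif20a, a motor of cytokinesis, was at 4.02, 3.58 and 4.29 CPM in wildtype animals and 3.10, 3.51 and 4.56 CPM in knockout animals, with overlap. For Kif20a 29.3% of exon bases overlap Cdc23 on the opposite strand. How reads in such stretches were counted is not given in the sources used here, so its counts may be off in either direction.

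Anln, which encodes the cytokinesis scaffold anillin and is also known as a septin-binding protein of central myelin, was at 61.7, 93.7 and 56.4 CPM in the wildtype and 38.2, 56.0 and 41.0 CPM in knockout libraries. Its mean of 57.9 CPM over all libraries stood far above the 0.193 to 7.39 CPM of the other 29 mitotic genes apart from Pttg1. The groups did not overlap, though the lowest wildtype and the highest knockout library were nearly equal. The log2 fold change of Anln was −0.65 (SE 0.25, edgeR adjusted p = 0.875, DESeq2 adjusted p = 0.478), and it was −0.39 without wildtype replicate 2. The 5 oligodendrocyte lineage markers summed to 359, 406 and 360 CPM in the wildtype and 346, 368 and 374 CPM in knockout libraries. This sum was also highest in wildtype replicate 2 and lowest in knockout replicate 1, and its groups overlapped. Sox10 and Olig1 had that order, and Olig2 was also highest in wildtype replicate 2. Pdgfra ran the other way, at 111 CPM in wildtype replicate 2, its lowest wildtype value, and 161 CPM in knockout replicate 1, its highest. Cspg4 likewise had its lowest wildtype and highest knockout values there. The order thus belonged to the sum and not to each marker, and its part in the difference of Anln was not tested.

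Mki67 and Top2a, genes linked to proliferation, varied more between animals of a group than between the groups. Mki67, which encodes the antigen Ki-67 of cycling cells, was at 2.21, 0.979 and 5.77 CPM in the wildtype and 7.82, 2.62 and 1.65 CPM in knockout libraries. Top2a, the topoisomerase that untangles replicated chromosomes, was at 1.39, 1.01 and 2.91 CPM and 2.83, 2.26 and 1.55 CPM. Both genes were low in wildtype replicate 2 and high in wildtype replicate 3 and knockout replicate 1, so the groups overlapped widely. The log2 fold changes were 0.43 (SE 0.79) for Mki67, 0.32 (SE 0.46) for Top2a and 0.70 (SE 0.71) for the kinase gene Melk. Melk was counted only 3 to 24 times in a library, at 0.0360, 0.122 and 0.281 CPM in the wildtype and 0.237, 0.249 and 0.232 CPM in knockout animals.

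Of the 7 replication genes 5 had negative and 2 positive fold changes, and none passed. Pcna, the sliding clamp of DNA polymerase, was at 47.8, 63.5 and 61.5 CPM in the wildtype and 33.8, 44.6 and 42.4 CPM in knockout libraries. All 3 knockout values lay below the wildtype values. For Pcna the log2 fold change was −0.52 (SE 0.17, edgeR adjusted p = 0.766), and 31.8% of its 50-base stretches also occur at another locus, foremost in Pcna-ps2. Mcm6, a subunit of the helicase that opens DNA for replication, was at 10.8, 10.1 and 11.8 CPM in the wildtype and 9.36, 1.96 and 6.65 CPM in knockout libraries. The wildtype values lay close together and the knockout values spread over a wide range, with a coefficient of variation of 62.5%. Mcm6 had a log2 fold change of −0.87 (SE 0.51), and it was −0.45 without knockout replicate 2 and −1.34 without knockout replicate 1. The other helicase subunits did not share that low value in knockout replicate 2. Mcm4 was at 23.2, 20.7 and 22.0 CPM and 24.2, 22.8 and 20.0 CPM, and the log2 fold changes were −0.18 (SE 0.24) for Mcm2, −0.12 (SE 0.28) for Mcm3, 0.03 (SE 0.14) for Mcm4 and −0.06 (SE 0.22) for Mcm5. Rrm2, a subunit of the enzyme that makes deoxynucleotides, had the highest fold change of the group, 0.33 (SE 0.27). Of the 50-base stretches of Rrm2, 6.48% also occur at another locus, foremost in Gm48445. Of the 42 genes other than Pttg1, the groups did not overlap with knockout lower for 4 (Bub1b, Anln, Pcna and Mcm6, 9.52%), against 4.93% of all genes.

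**Figure D4:**
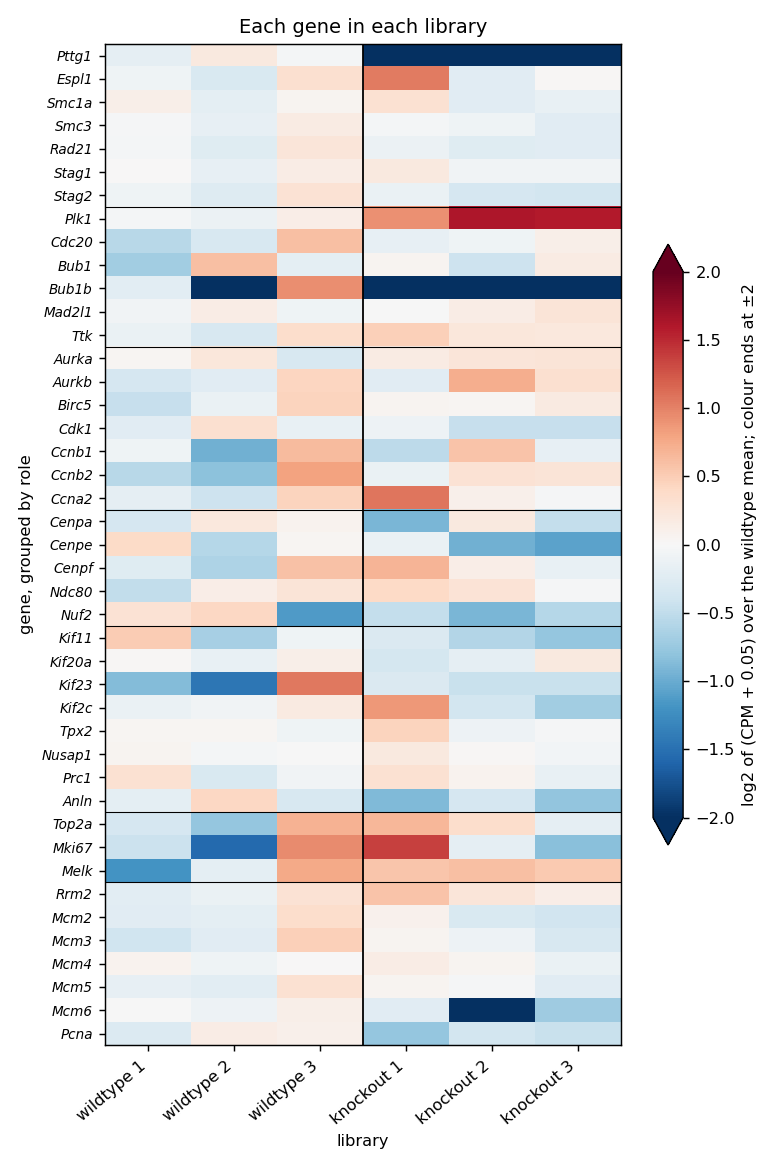
Each of the 43 genes (rows, grouped by role) in each library (columns), coloured by the log2 of CPM plus 0.05 over the wildtype mean, with the colour ending at 2 in either direction. Pttg1 is at the low end in all 3 knockout libraries, and Mki67 and Top2a are high in wildtype replicate 3 and knockout replicate 1.

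Short sequence elements near the start sites of these genes are described next, since neither the choice of genes nor the counts used them. Many genes of the second part of the cell cycle carry a cell cycle genes homology region (CHR), the letters TTTGAA or TTCGAA, near the start of transcription. The windows searched were RefSeq promoters of GRCm38.p6, 250 bases before and 50 bases after a start, on both strands, and 36 of the 43 genes had one. A CHR match lay in 19 of 27 windows of mitotic genes (70.4%), in 1 of 9 windows of cohesin and replication genes (11.1%, Mcm2) and in 19.4% of all 27025 windows. The CCAAT box was in 66.7%, 88.9% and 37.9% of these windows, and the E2F-type elements TTTCGCGC, TTTGGCGC or TTTCCCGC were in 3.7%, 55.6% and 1.91%. These matches are a description of letters, not of bound sites. The only window tabulated for Pttg1 (chromosome 11, 43425932 to 43426231) held none of the 3 elements, but 195 of its 250 upstream bases lie inside annotated exons of Pttg1. Other windows have limits too: those of Pttg1, Kif2c and Stag1 surround starts 1.48, 3.85 and 45.7 kb inside the RefSeq gene, and the Kif2c window counts among the CHR matches and the Stag1 window among the E2F-type matches. For 26 of the 36 windows the first transcribed bases were found in a GENCODE transcript of the gene. The 30-base stretches around the CHR of separase, of Plk1 and Bub1b, whose levels differed by DESeq2, and of 4 genes without a call are shown 5′ to 3′ on the gene's strand, with the element in capitals.
Espl1 (chr15:102296254-102296283, plus strand): tcactagggataTTTGAAaggaggtgctgg
Plk1 (chr7:122159453-122159482, plus strand): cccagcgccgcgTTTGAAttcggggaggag
Bub1b (chr2:118598011-118598040, plus strand): tctctccctgggTTCGAAggcttgtcttag
Cdc20 (chr4:118437344-118437373, minus strand): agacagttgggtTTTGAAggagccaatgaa
Cdk1 (chr10:69352910-69352939, minus strand): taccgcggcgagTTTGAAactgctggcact
Ccnb2 (chr9:70421533-70421562, minus strand): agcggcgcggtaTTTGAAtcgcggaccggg
Kif23 (chr9:61946780-61946809, minus strand): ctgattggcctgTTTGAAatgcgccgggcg
These genes had log2 fold changes from −2.59 for Bub1b, which carries the letters TTCGAA, to 1.44 for Plk1. The 6 with the letters TTTGAA lay between −0.41 for Kif23 and 1.44. The Bub1b element began at −188 from the start, and the other printed elements between −27 (Espl1) and 30 (Plk1). Cdk1 and Ccnb2 each held a further match, at −71 and −167, that is not printed.

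Most mitotic genes were scarce in this tissue, and 1 gene, Anln, set how their summed levels compared between the genotypes. Of the 30 mitotic genes other than Pttg1, 12 had a mean under 1 CPM and 16 a mean of 1 to 5 CPM. The 30 genes summed to 108, 135 and 119 CPM in the wildtype and 94.8, 104 and 88.1 CPM in the knockout libraries, so all 3 knockout sums were lower. Without Anln the CPM summed to 46.2, 41.4 and 62.1 in the wildtype and 56.6, 48.1 and 47.1 in the knockout libraries, so the groups overlapped. The 7 replication genes summed to 106, 119 and 133 CPM in the wildtype and 98.7, 95.8 and 92.8 CPM in the knockout libraries, without overlap. Pcna was the largest part of each of these sums, and a sum without it was not taken. The median log2 level of the 7 genes against the wildtype mean was −0.20, −0.12 and 0.31 in the wildtype libraries. It was 0.11, −0.06 and −0.26 in the knockout libraries, so by this measure the groups overlapped. Relative to the wildtype mean, the median log2 level of the 30 genes was −0.13, −0.17 and 0.28 in wildtype replicates 1, 2 and 3, and 0.17, 0.09 and −0.01 in knockout replicates 1, 2 and 3. Of the 42 genes other than Pttg1, 15 had their highest value in wildtype replicate 3 and 14 in knockout replicate 1, and 12 had their lowest in wildtype replicate 2. Pttg1 did not follow this order, being highest in wildtype replicate 2.

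Markers of marrow, blood and immune cells, some of which divide, were counted in the same libraries. The 8 erythroid markers summed to 12.4, 8.27 and 39.8 CPM in the wildtype and 18.1, 10.1 and 7.95 CPM in the knockout libraries, also highest in wildtype replicate 3 and next in knockout replicate 1. Of these 8, the hemoglobin genes Hbb-bs and Hbb-bt were at 0 in all libraries and Hba-a1 in all but wildtype replicate 1. How reads matching more than 1 gene were counted is not given in the sources used here, so these zeros may not reflect levels. Only 5 of the 8 passed the filter on low counts. The 9 neutrophil lineage markers summed to 18.7, 25.0 and 52.6 CPM in the wildtype and 125, 144 and 74.2 CPM in the knockout libraries, without overlap, and all 9 had positive fold changes, none past the threshold in edgeR or DESeq2 and 1 with an unadjusted p under 0.05 in edgeR. In knockout replicate 1 this sum was nearly all Ltf (121 CPM), and the other 8 markers were each at their lowest of all 6 libraries. Without Ltf the sums were 16.4, 22.3 and 40.1 CPM in the wildtype and 3.64, 81.0 and 65.0 CPM in the knockout libraries, and the groups overlapped. Of the 8 markers of the B lineage, Ebf1, which other cells also express, was at 87.5 to 108 CPM and the other 7 were below 4 CPM in every library. The part of such cells in the levels of the mitotic genes was not tested. The 7 macrophage and microglia markers summed to 180, 198 and 195 CPM in the wildtype and 149, 168 and 133 CPM in the knockout libraries, without overlap and so in the direction of Pttg1, with 5 of 7 fold changes negative. Their part in the difference of Pttg1 was not tested. The erythroid and B lineage sums overlapped between the groups.

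**Figure D5:**
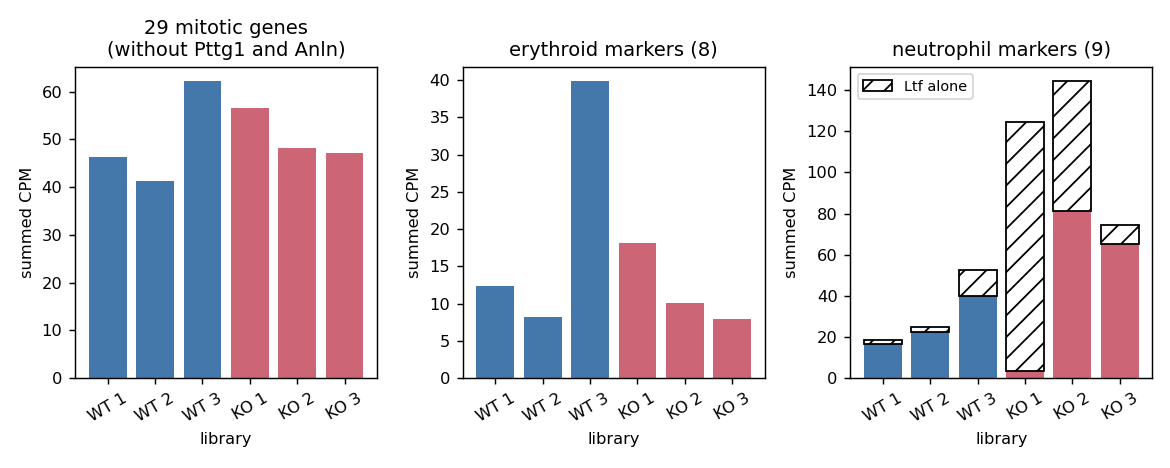
Summed CPM (y axis from 0) of the 29 mitotic genes without Pttg1 and Anln, of 8 erythroid markers and of 9 neutrophil markers in each wildtype (WT) and knockout (KO) library. The mitotic and erythroid sums are highest in wildtype replicate 3, at 62.1 and 39.8 CPM, and the neutrophil sum of knockout replicate 1 is nearly all Ltf, drawn hatched, with 3.64 CPM from the other 8 markers.

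Further genes of the same pathways gave no call. None of the 82 genes of a wider list passed in edgeR or DESeq2, against 0.138% and 1.39% of all genes tested by each. None had an unadjusted p under 0.05 in edgeR, against 5.2% of all genes. Of the 82, 36 had positive and 46 negative fold changes, with a median of −0.03. The groups did not overlap for 7 (8.54%), below the 10.3% of all genes. The 16 genes of the anaphase-promoting complex and its regulators, which destroys securin, had a median of 0.01 and lay between −0.21 and 0.58. The highest value was that of Fbxo5, an inhibitor of this complex, at 3.64 ± 0.653 CPM in wildtype against 5.45 ± 1.72 CPM in knockout animals (SD, n = 3). The subunit Cdc27 was at 72.7 ± 2.22 and 69.0 ± 1.98 CPM, and Pttg1ip, which encodes a securin-binding protein, at 241 ± 70.0 and 209 ± 19.4 CPM (SD, n = 3). The 11 genes that load, release, acetylate or protect cohesin and the 8 condensin genes all lay within 1.5-fold. Of the 42 genes of G1 and S phase control and replication, 39 did so, among them the cyclin Ccnd1 (17.3 ± 1.95 and 19.6 ± 1.26 CPM) and Cdk4 (58.1 ± 4.23 and 55.3 ± 6.81 CPM, wildtype and knockout, SD, n = 3). Foxm1, a transcription factor of mitotic genes, was at 3.24 ± 0.494 and 2.80 ± 0.248 CPM (SD, n = 3).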

How the data were processed

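Libraries were grouped by genotype in the labels. The submitters' processing notes name the build mm10 and the tools HTSeq and DESeq2 without versions, and no source used here gives the aligner or strand setting. The deposited raw counts, whole numbers made by the authors, were used as such. Deposited with them are the authors' mean of normalised counts (a signal over all samples), log2 fold change with its error, test statistic (a score) and p-value, which were printed only where the text names their table. The 5 symbols on 2 rows with identical counts were joined.

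The genotypes were compared with edgeR 4.0.16 under R 4.3.3 (filterByExpr, TMM, robust quasi-likelihood F tests, 2-sided, Benjamini-Hochberg over 16722 genes, threshold 0.05), without a block. SE is the log2 fold change divided by the square root of F. DESeq2 1.42.0 was an alternative. CPM are TMM-scaled, and per kilobase they were divided by the union of GENCODE vM21 exons. The scripts were tested on simulated counts. No pair of libraries agreed within sampling noise. Each library is 1 mouse, so the p-values join differences between mice with those of preparation.

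The genes and lists were chosen with earlier results of these data known. Values per library were given for Pttg1, Espl1, genes past the threshold or without overlap, and the lowest p and 2 highest means of each role group. Protein sequences were not used here.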

Additional observations from a re-analysis of the deposited data

How the results depend on the processing

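With DESeq2 size factors, total counts only or no filter on low counts in edgeR, Pttg1 remained the only gene of the 43 past the threshold, its log2 fold change stayed between −5.70 and −5.68, and 21 to 25 genes passed over all genes against 23. DESeq2 called 252 genes over all and 3 of the 43, adding Plk1 and Bub1b. Leaving out 1 animal at a time gave 3 to 14 genes over all and 0 to 1 of the 43, with Pttg1 from −6.26 to −5.47, and the smaller number of samples tested is part of each such fit. The median of the 42 other genes was 0.03 with all animals and between −0.08 and 0.09 over these settings, each within 0.16 of 0.03, the SD between libraries of a group. The replicate numbers of the titles name different mice: same-numbered libraries deviated together at r of 0.50, 0.29 and −0.16, so they were not treated as pairs. With the replicate block edgeR called 3 genes and 0 of the 43, and Pttg1 was at −5.80 (adjusted p = 0.0575). Genes counted under about 50 times in a library, such as Bub1, Ttk, Ndc80, Melk and Kif2c, had an SE of 0.39 or more, which limits what could be detected.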
